A study of Mus musculus with 3 samples.

Results

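Integrins and cadherins, the membrane receptors that hold stromal cells to matrix and to each other, were examined across 3 lines of mouse OP9 cells. A probe was a member if its single platform symbol was an integrin subunit (Itga or Itgb with a number, or Itgad, Itgae, Itgal, Itgam, Itgav or Itgax) or a numbered cadherin (Cdh with a number). By this rule 46 of the array's 23473 probes were members: 15 probes of integrin alpha subunits, 7 of integrin beta subunits and 24 of cadherins. They stand for 45 genes of the 16446 named on the array, since Cdh24 had a pair of probes.

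RNA was measured on 1 one-colour oligonucleotide array per line. OP9-DL cells carry Delta-like 1, a ligand of Notch receptors, beside green fluorescent protein (GFP), OP9-GFP cells carry GFP without the ligand, and OP9 cells are the parental line. All 3 lines go back to the calvaria, the skull cap, of newborn B6C3Fe-a/a mice homozygous for Csf1op, the mutation that removes macrophage colony-stimulating factor. They were grown in alpha-MEM with 20% serum and had no treatment. Whether the transduced lines are single clones or mixed populations, and which promoter drives GFP and Delta-like 1, the labels do not say. The series title asks whether Delta-like 1 serves as an adhesion molecule for mast cells, so the adhesion receptors that the stromal cells themselves express are part of the setting of that question. With 1 array per line, there is no replicate check and no test. What Delta-like 1 does and what else differs between the cultures cannot be told apart, nor can fewer cells with an RNA and less of it per cell.

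An integrin is a pair of one alpha and one beta subunit, and the alpha subunit largely sets which ligand is bound: fibronectin and vitronectin by their RGD sequence, collagens, laminins, or proteins on other cells. Inside the cell, talin and kindlin bind the beta tail and tie it to actin. Classical cadherins bind the same cadherin on a neighbouring cell when calcium is present, and their tails hold beta-catenin and p120-catenin. Stromal cells of mesenchymal origin typically carry N-cadherin (Cdh2) and cadherin-11 (Cdh11), whereas E-cadherin (Cdh1) belongs to epithelia.

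Intensities are the authors' values, scaled by them to a median of 20 per array. A probe was compared if it had a value on all 3 arrays and its mean log2 intensity reached the 25th percentile, an intensity of 6.13. Of the 46 member probes, 18 (39.1%) passed, against 66.4% of all probes. These were 11 of 22 integrin probes and 7 of 24 cadherin probes. Another 19 were measured everywhere but lay below the limit, and 9 were blank on at least 1 array. A difference is called here at 2-fold or more. Each gene has its own probe with its own response, so levels are set side by side only between arrays and not between genes. Dll1 itself stood at 333.3 in OP9-DL cells, 20.5 in OP9-GFP cells and 14 in OP9 cells, highest in the line labelled with it. The stromal identity in the labels was matched by bright readings of Vim, vimentin (32110.4, 25328.1 and 18420.0), and Col1a2, a collagen I chain (5145.3, 5922.4 and 6612.6). In all, 10 of 14 stromal marker probes reached 20 on each array. The others lay below 20 on every array: Thy1 (3.0, 1.7 and 1.1), Dcn (1.9, 3.7 and 3.7), Lum (5.8, 7.5 and 5.4) and Postn (1.9, 10.4 and 2.5). Of the 11 compared, 2 were called in OP9-DL against OP9-GFP cells, Col3a1 and Cxcl12, both lower (18.2%, against 5.04% of all compared probes). In OP9-GFP against OP9 cells Col1a1 was called higher and Pdgfra lower (18.2%, against 11.6%), and in OP9-DL against OP9 cells Col1a1 was higher and Pdgfra and Col3a1 lower (27.3%, against 11.2%). Pdgfra, a receptor of mesenchymal cells, had 127.1 in OP9-DL and 166.1 in OP9-GFP cells against 800.6 in OP9, so that stromal markers differ in the same comparisons as Itgav below, and their part in those results was not tested.

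Among the compared members, Cdh2 in OP9-DL cells and Itgav in both GFP-carrying lines stood furthest from the other arrays, and most of the rest lay close together. The highest of the 3 intensities was under 1.5-fold above the lowest for 9 of 18 members (50%), against 56.4% of all compared probes. It was 2-fold or more above for 3 members (16.7%), Cdh2, Cdh11 and Itgav, against 17.6% of all. As a group, the members thus spread over the arrays about as much as the average probe did. The OP9 array gave the highest value for 2 of 18 members, Itgb4 and Itgb5, and the OP9-GFP array for 10. Over all compared probes these shares were 36.1% and 32.8%.

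**Figure D1:**
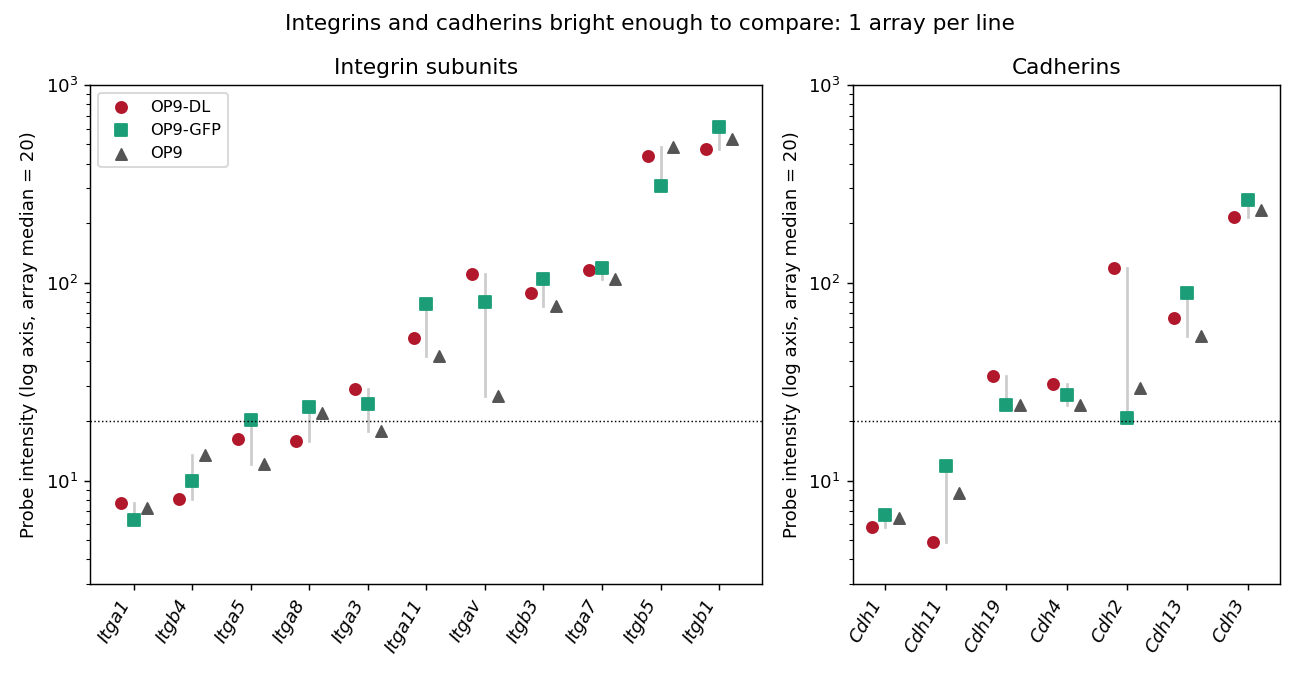
Probe intensity (log axis, array median 20, dotted line) of the 11 integrin and 7 cadherin probes bright enough to compare, with 1 point per array and a grey bar from the lowest to the highest. Cdh2 stands at 118.5 in OP9-DL cells against 20.7 and 29.4 in the other lines, and Itgav stands at 111.1 and 79.8 in the GFP-carrying lines against 26.7 in OP9.

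The first group of integrins recognises the RGD sequence of fibronectin, vitronectin and related matrix proteins. Itgav, the alpha v subunit that pairs with beta 1, beta 3, beta 5, beta 6 and beta 8, had an intensity of 111.1 in OP9-DL cells, 79.8 in OP9-GFP cells and 26.7 in OP9 cells. The parental array was thus the low one, and both lines with GFP stood above it. The difference was 4.16-fold for OP9-DL against OP9 and 2.99-fold for OP9-GFP against OP9, while OP9-DL stood 1.39-fold above OP9-GFP. Itgav was the only one of the 18 members with its OP9 value at least 2-fold below each of the others, a pattern of 2.2% of all compared probes. On the log2 scale the difference of OP9-GFP against OP9 was 1.58, and 192 of 15581 compared probes, Itgav included, stood at least as high.

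Of the beta partners of alpha v, the compared Itgb5, Itgb3 and Itgb1 were not called in any comparison. Itgb5, the beta 5 subunit of a vitronectin receptor, had 436.4 in OP9-DL cells, 307.2 in OP9-GFP cells and 483.2 in OP9 cells, so that its lowest array was OP9-GFP. It stood 1.57-fold lower in OP9-GFP than in OP9 cells and 1.42-fold higher in OP9-DL than in OP9-GFP cells. Itgb3, which forms the other vitronectin receptor with alpha v, had 88.3, 104.4 and 76.0 in OP9-DL, OP9-GFP and OP9 cells, all within 1.5-fold. Itgb6, a partner of alpha v on epithelial cells that activates latent TGF-beta, was below the brightness limit with 4.8 and 5.2 in OP9-DL and OP9-GFP cells and 2.1 in OP9 cells. Its lowest array was thus OP9, as for Itgav, but readings this dim give no firm fold.

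Itgb1, the beta 1 subunit shared by most matrix receptors, had 471.9 in OP9-DL cells, 615.6 in OP9-GFP cells and 530.8 in OP9 cells, a spread under 1.5-fold. Itga5, which with beta 1 forms the classical fibronectin receptor, had 16.2, 20.2 and 12.1 in OP9-DL, OP9-GFP and OP9 cells. It was 1.67-fold higher in OP9-GFP than in OP9 cells and 1.25-fold lower in OP9-DL than in OP9-GFP cells. Itga8, another RGD-binding subunit, found on mesenchymal and smooth muscle cells, had 15.8 in OP9-DL cells against 23.6 in OP9-GFP and 21.9 in OP9 cells. At 1.49-fold, its difference of OP9-DL against OP9-GFP was the lowest among the integrins, and no integrin reached 2-fold in that comparison.

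The collagen receptors pair an alpha subunit with beta 1. Itga11, the receptor for fibrillar collagens on fibroblasts, had 52.7 in OP9-DL cells, 78.3 in OP9-GFP cells and 42.5 in OP9 cells. The OP9-GFP array was the high one, 1.84-fold above OP9, and OP9-DL stood 1.49-fold below OP9-GFP. Itga1, which also binds collagens, was close between the lines with 7.7, 6.3 and 7.3. Below the limit, Itga2 read 6.5, 4.5 and 5.5, and Itga10, a cartilage collagen receptor, had 2.7 in OP9-DL cells, a blank for OP9-GFP and 2.0 in OP9 cells.

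No compared subunit of the laminin receptors reached 2-fold. Itga3 had 29.1 in OP9-DL cells, 24.5 in OP9-GFP cells and 17.7 in OP9 cells, 1.64-fold higher in OP9-DL than in OP9. Itgb4, the subunit of hemidesmosomes that pairs with alpha 6, ran the other way with 8.1, 9.9 and 13.4, 1.65-fold lower in OP9-DL than in OP9 cells. Itga7, best known from muscle, was nearly level at 115.8, 119.2 and 104.7. The alpha 6 probe lay below the brightness limit, with 6.1 in OP9-DL cells against 1.4 in OP9-GFP and 1.8 in OP9 cells, so that only its OP9-DL value came near the limit.

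The 3 compared integrins that stood at least 1.5-fold higher in OP9-GFP than in OP9 cells were Itgav, Itga11 and Itga5. At that threshold 4586 of the 15581 compared probes were called in this comparison, 47.5% of them higher. The order of the arrays was not shared: Itgav was highest in OP9-DL cells, Itga11 and Itga5 in OP9-GFP cells. The 250 bases before the transcript start of each are shown because these members passed that threshold. The sequences are RefSeq's, build GRCm38.p6, read 5′ to 3′ on the gene's strand, and capitals mark the matches to the 5 motifs searched on both strands.
Itgav, chr2:83724147-83724396, plus strand: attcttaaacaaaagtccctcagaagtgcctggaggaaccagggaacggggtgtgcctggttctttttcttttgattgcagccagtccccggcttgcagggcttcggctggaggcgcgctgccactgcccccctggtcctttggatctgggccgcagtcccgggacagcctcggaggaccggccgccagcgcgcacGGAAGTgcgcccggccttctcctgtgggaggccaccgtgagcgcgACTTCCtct
Itga11, chr9:62677605-62677854, plus strand: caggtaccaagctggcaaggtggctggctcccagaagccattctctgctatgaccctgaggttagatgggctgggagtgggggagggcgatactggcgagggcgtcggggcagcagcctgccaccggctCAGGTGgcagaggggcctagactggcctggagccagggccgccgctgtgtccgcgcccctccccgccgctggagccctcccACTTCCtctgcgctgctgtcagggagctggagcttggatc
Itga5, chr15:103366792-103367041, minus strand: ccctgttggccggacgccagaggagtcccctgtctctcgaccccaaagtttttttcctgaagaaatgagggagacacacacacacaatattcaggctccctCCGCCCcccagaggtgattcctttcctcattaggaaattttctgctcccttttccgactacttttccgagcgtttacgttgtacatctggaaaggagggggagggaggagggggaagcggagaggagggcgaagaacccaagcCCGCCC
The motifs were the GC box GGGCGG, the AP-1 site TGANTCA, the TATA box TATAAA, the E-box CACCTG that Snail and Zeb factors bind, and the ETS core GGAAGT. The last was chosen after the sequences were seen, and no 2 of these matches overlap. Itgav held 2 ETS cores, a motif in 19.7% of 32851 promoter windows of this length, and none of the other 4 motifs. Itga11 held 1 ETS core and 1 E-box (17.2% of windows), and Itga5 held 2 GC boxes (32.7% of windows). No motif was thus found in all 3. The G and C content was 64.4% for Itgav, 68.4% for Itga11 and 55.6% for Itga5, against a median of 52.4% over all windows. A match is a description of letters and says nothing of binding in these cells.

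The integrins of blood cells form the next group, and these were dim or blank on most arrays. Itgal, the alpha L subunit of LFA-1, was the exception, with 17.5 in OP9 cells against 2.0 in OP9-DL and 2.4 in OP9-GFP cells. Its mean lay below the brightness limit, so it was not compared, and the readings near 2 give a direction but no firm fold. Itgb2, the beta 2 partner that LFA-1 needs, had 4.7 in OP9-DL cells, 2.3 in OP9-GFP cells and 4.7 in OP9 cells, and so did not follow Itgal. Itgam, the alpha M subunit of macrophages and neutrophils, had 2.0, 3.2 and 3.2, and Itgax, the alpha X subunit of dendritic cells, had 6.3 in OP9-DL cells, a blank for OP9-GFP and 3.5 in OP9 cells. Itga4, which binds VCAM-1 and fibronectin, read 3.5, 2.3 and 2.7, its partner Itgb7 read 3.0, 2.1 and 2.5, and Itga9 read 2.2 in OP9-DL and 2.0 in OP9 cells. Of 17 haematopoietic marker probes, 4 reached the array median of 20 in OP9-DL cells, 3 in OP9-GFP cells and 4 in OP9 cells. Their summed intensity was 190.0, 190.4 and 200.0, and Ptprc, the leukocyte antigen CD45, read 2.8, 2.5 and 2.1. The probes that reached 20 were Cd68 (46.3, 42.9 and 29.4), Laptm5 (31.4, 25.5 and 23.1), Cd14 (23.0, 34.0 and 55.6) and Csf1r (20.6, 19.9 and 24.8). Csf1r did so in OP9-DL and OP9 cells only. Of the 8 haematopoietic probes compared, 0 were called in OP9-GFP against OP9 and 1, Cd14, was lower in OP9-DL than in OP9 cells (12.5%), against 11.6% and 11.2% of all compared probes, too few probes to read anything from. Of 4 mast cell probes compared, 1 was called in each comparison, Tpsab1, a mast cell tryptase. That is 25%, against 5.04% in OP9-DL against OP9-GFP, 11.6% in OP9-GFP against OP9 and 11.2% in OP9-DL against OP9. Tpsab1 had 818.9 in OP9-DL, 9.0 in OP9-GFP and 20.6 in OP9 cells. The compared Cpa3 (6.7, 8.1 and 4.9), Mcpt4 (19.8, 17.8 and 19.1) and Gata2 (53.1, 55.9 and 85.9) were not called. Kit had a value in OP9 cells only, 1.6. The part of blood cells in the Itgal reading was not tested.

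Among the cadherins, Cdh2 and Cdh11, both named above as mesenchymal, differed between OP9-DL and OP9-GFP cells in opposite directions. Cdh2, N-cadherin, had an intensity of 118.5 in OP9-DL cells, 20.7 in OP9-GFP cells and 29.4 in OP9 cells. The OP9-DL array stood alone, 5.72-fold above OP9-GFP and 4.03-fold above OP9, and no other compared member set OP9-DL apart from both lines. Of all compared probes, 0.969% stood at least 2-fold higher in OP9-DL than in each of the other lines. On the log2 scale Cdh2 differed by 2.52 between OP9-DL and OP9-GFP, and 38 of 15581 compared probes, Cdh2 included, stood at least as high.

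Cdh11, cadherin-11 of osteoblasts and fibroblasts, had 4.9 in OP9-DL cells, 11.8 in OP9-GFP cells and 8.6 in OP9 cells. It was 2.41-fold lower in OP9-DL than in OP9-GFP cells and 1.76-fold lower than in OP9 cells. This reading is dim: its log2 difference of -1.27 shrank to the 2-fold threshold itself when 2 was added to every intensity. Of the 4612 compared probes with a mean under 20, where Cdh11 lies, 6.46% differed by 2-fold or more in the same comparison. For the 5345 probes with a mean from 20 to 100, where Cdh2 lies, the share was 5.14%.

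The remaining compared cadherins stayed within 2-fold in every comparison. Cdh13, T-cadherin, which lacks a cytoplasmic tail, is held by a lipid anchor and binds adiponectin, had 66.7 in OP9-DL cells, 89.2 in OP9-GFP cells and 53.6 in OP9 cells, 1.66-fold higher in OP9-GFP than in OP9. Cdh3, P-cadherin, was clearly above the array median and nearly level, with 213.7, 262.6 and 232.7. Cdh4, R-cadherin, had 30.9, 27.2 and 24.2, and Cdh19, known from Schwann cells, 33.6, 24.1 and 24.2. Cdh1, E-cadherin, whose symbol has also been used for Fzr1, lay just above the brightness limit with 5.8, 6.7 and 6.5. The epithelial adhesion protein Epcam read 4.1, 4.7 and 2.4, below the limit. Other epithelial markers lay above the array median on each array: Cldn4 (219.2, 172.1 and 151.0), Krt14 (38.5, 41.6 and 35.3) and Cldn7 (28.7, 29.3 and 30.9). Of 10 epithelial marker probes, 3 reached 20 in OP9-DL cells, 4 in OP9-GFP cells and 3 in OP9 cells. Of the 4 compared, 0 were called in any comparison, too few probes to read anything from. Over all compared probes the called share was 5.04% in OP9-DL against OP9-GFP, 11.6% in OP9-GFP against OP9 and 11.2% in OP9-DL against OP9.

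The other 17 cadherin probes gave no bright reading on any array. The 11 measured on all arrays but below the limit ranged from 1 to 7.1, with Cdh26 the highest at 6.7 in OP9-DL, 7.1 in OP9-GFP and 4.4 in OP9 cells. In this range Cdh8, a cadherin of neurons, had 2.4 in OP9-DL, 4.5 in OP9-GFP and 1.9 in OP9 cells, and Cdh16, kidney cadherin, had 1.6, 2.5 and 3.5. Also below the limit were Cdh10, Cdh12, Cdh15, Cdh17, Cdh18, Cdh22, Cdh23 and the brighter probe of Cdh24. The 6 probes blank somewhere ranged from 1.5 to 2.5: Cdh6, Cdh7, Cdh9, Cdh20, the dimmer probe of Cdh24, and Cdh5. Cdh5, the VE-cadherin that defines endothelium, had a value in OP9 cells only, 2.1, and the endothelial marker Pecam1 one in OP9-DL cells only, 2.0. Of the 15 endothelial marker probes, 1 reached 20 in OP9-DL cells, 1 in OP9-GFP cells and 2 in OP9 cells. Egfl7 did so on each array (54.3, 65.8 and 41.8) and Kdr in OP9 cells only (19.7, 18.6 and 25.5). Of the 4 compared, 0 were called in any comparison, too few probes to read anything from. Over all compared probes the called share was 5.04% in OP9-DL against OP9-GFP, 11.6% in OP9-GFP against OP9 and 11.2% in OP9-DL against OP9.

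**Figure D2:**
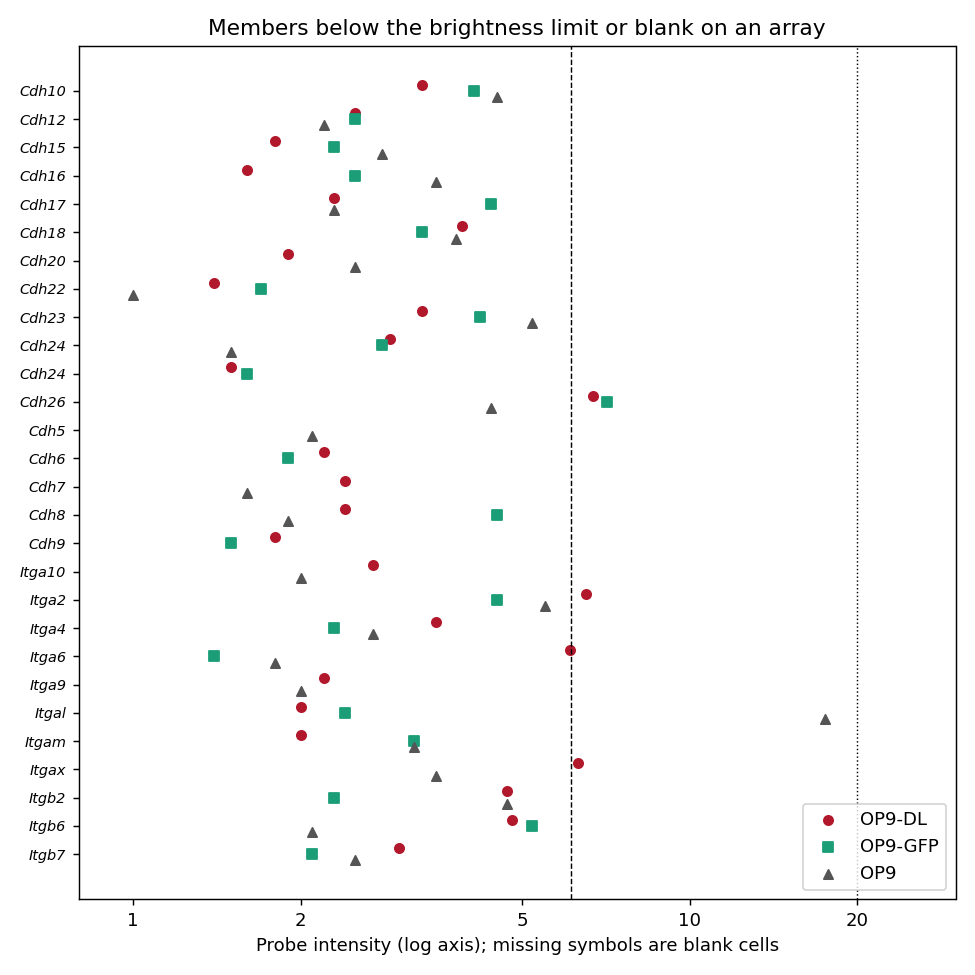
Intensity (log axis) of the 28 member probes that were not compared, with 1 point per array and no point where the cell was blank. The dashed line is the brightness limit of 6.13 and the dotted line the array median of 20, and only Itgal in OP9 cells, at 17.5, comes near the median.

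Some members are neighbours on a chromosome. Cdh8, Cdh11 and Cdh5 follow each other on chromosome 8 with 0 other protein-coding genes between them, and so do Cdh3 and Cdh1. Cdh11 and the dim Cdh8 both had their highest value in OP9-GFP cells, Cdh5 was blank there and in OP9-DL cells, and Cdh3 and Cdh1 were within 1.5-fold everywhere. Itga2 and Itga1 are neighbours on chromosome 13 and shared the order of the arrays, highest in OP9-DL and lowest in OP9-GFP cells, with Itga2 below the limit. Itgav and Itga4 lie on chromosome 2 with 14 protein-coding genes between them, and Itga4 was dim on each array.

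The comparison of OP9-DL with OP9-GFP cells, the pair that differs by Delta-like 1 according to the labels, called 2 of the 18 members: Cdh2 higher and Cdh11 lower. That is 11.1%, against a background of 5.04% of all compared probes (2.31% higher and 2.73% lower). These are too few calls to read anything from as a share, and the Cdh11 reading is dim. The 11 integrins had 0 calls and a median log2 difference of -0.24, with 4 above 0 and 7 below. That is 36.4% above 0, against 48.0% of all compared probes. The 7 cadherins had a median of -0.21, and all 15581 probes one of -0.01.

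OP9-GFP against OP9, which differ without the ligand, called 1 of 18 members, Itgav, against a background of 11.6% (4.86% higher and 6.75% lower). Here 13 members stood above 0 (72.2%, against 51.7% of all compared probes), and the 5 below were Itgb5, Itgb4, Itga1, Cdh2 and Cdh19. The median was 0.21 for integrins and 0.17 for cadherins, against 0.02 for all probes. Integrin alpha subunits stood above 0 for 6 of 7, with a median of 0.47, and beta subunits for 2 of 4, with a median of -0.11. With so few probes on a single pair of arrays, alpha and beta subunits cannot be told apart in this.

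OP9-DL against OP9 called 2 of 18 members, Itgav and Cdh2, both higher, against a background of 11.2% (4.33% higher and 6.92% lower). The medians were 0.15 for integrins and 0.32 for cadherins, against 0.02 for all probes. The 3 comparisons share arrays, so their values are not separate observations.

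**Figure D3:**
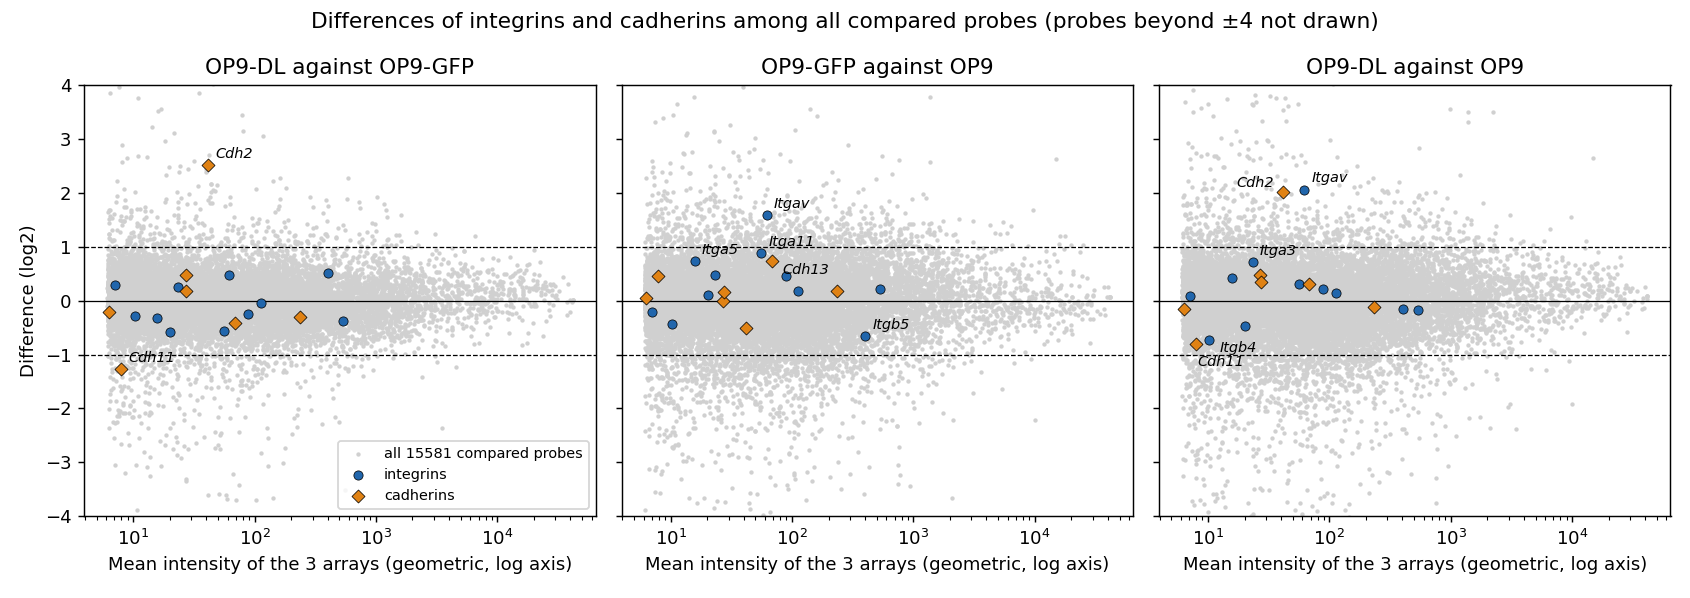
Log2 difference against the mean intensity of the 3 arrays (log axis) for all 15581 compared probes (grey), integrins (blue circles) and cadherins (orange diamonds). Dashed lines mark 2-fold, members at 1.5-fold or more are named, and Cdh2 (2.52 in OP9-DL against OP9-GFP) and Itgav (1.58 in OP9-GFP against OP9) lie outside the main cloud.

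The proteins that tie integrins to actin were compared through 39 probes of a list of focal adhesion genes. In OP9-DL against OP9-GFP cells 0 were called higher and 3 lower, 7.69% against 5.04% of all compared probes, with a median of 0.04. Tln2, talin-2, had 28.3 in OP9-DL cells, 88.1 in OP9-GFP cells and 110.2 in OP9 cells, so that OP9-DL was the low array. Tln1, talin-1, did not follow it, with 1996.4, 1688.8 and 1617.8, highest in OP9-DL cells and not called in any comparison. Kank2, which binds talin, had 26.3, 79.8 and 59.9, with OP9-DL low as for Tln2. Enah, an actin-elongating protein, had 38.5 in OP9-DL and 99.5 in OP9-GFP cells against 41.9 in OP9, so that OP9-GFP was the high array.

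In OP9-GFP against OP9 cells 3 of these linkers were called higher, Nedd9, Csrp1 and Enah, and 2 lower, Pxn and Tns3 (12.8%, against 11.6% of all). In OP9-DL against OP9 cells 3 were higher, Nedd9, Actn1 and Itgb1bp1, and 3 lower, Tln2, Tns3 and Kank2 (15.4%, against 11.2%). Itgb1bp1, the ICAP-1 protein that binds the beta 1 tail and competes with talin, had 865.5 in OP9-DL cells, 595.6 in OP9-GFP cells and 418.8 in OP9 cells. It was 2.07-fold higher in OP9-DL than in OP9, beside an Itgb1 reading that stayed within 1.5-fold.

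Matrix ligands of integrins had calls in both directions in each comparison. Like the other lists, this list was chosen with earlier results of these data known. Its shares beside those of all compared probes are therefore a description only. Of 35 compared, 2 were called higher (Lama4, Lamb3) and 5 lower (Thbs1, Tgfbi, Nid2, Col3a1, Tnc) in OP9-DL than in OP9-GFP cells, 20% against 5.04% of all compared probes, with a median of -0.22. In OP9-GFP against OP9 the list had 9 higher (Tnc, Ccn2, Fbln5, Ccn1, Thbs1, Col1a1, Lamb3, Nid2, Lama5) and 5 lower (Spp1, Col6a1, Tgfbi, Thbs2, Col6a2). That was 40% against 11.6% of all, with a median of 0.27. In OP9-DL against OP9 it had 6 higher (Fbln5, Ccn2, Tnc, Lamb3, Ccn1, Col1a1) and 5 lower (Spp1, Tgfbi, Thbs2, Emilin1, Col3a1). That was 31.4% against 11.2% of all, with a median of -0.21. Tnc, tenascin-C, had 59.5 in OP9-DL cells, 159.6 in OP9-GFP cells and 9.0 in OP9 cells, lowest in the parental line as Itgav was. Ccn2 (2884.3, 3524.2 and 256.2) and Fbln5 (328.6, 180.4 and 20.2) were also lowest there. Spp1, osteopontin, an RGD ligand of alpha v, ran the other way with 6877.5, 5610.9 and 26149.4. Lamb3, a laminin-332 chain, had 30.7 in OP9-DL cells, 11.8 in OP9-GFP cells and 4.9 in OP9 cells, the order that Itga3 also showed.

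Ligands and partners of integrins on cell surfaces, 16 compared, had 1 called higher, Icam4, and 1 lower, Cd9, in OP9-DL against OP9-GFP cells, and 0 in OP9-GFP against OP9 (12.5% and 0%, against 5.04% and 11.6% of all compared probes). Cd9, a tetraspanin that associates with beta 1 integrins, had 9.3 in OP9-DL cells against 963.3 in OP9-GFP and 1722.4 in OP9 cells. Vcam1, the stromal ligand of the alpha 4 integrin on blood cells, had 350.3, 242.6 and 339.6 in OP9-DL, OP9-GFP and OP9 cells, all within 1.5-fold.

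**Figure D4:**
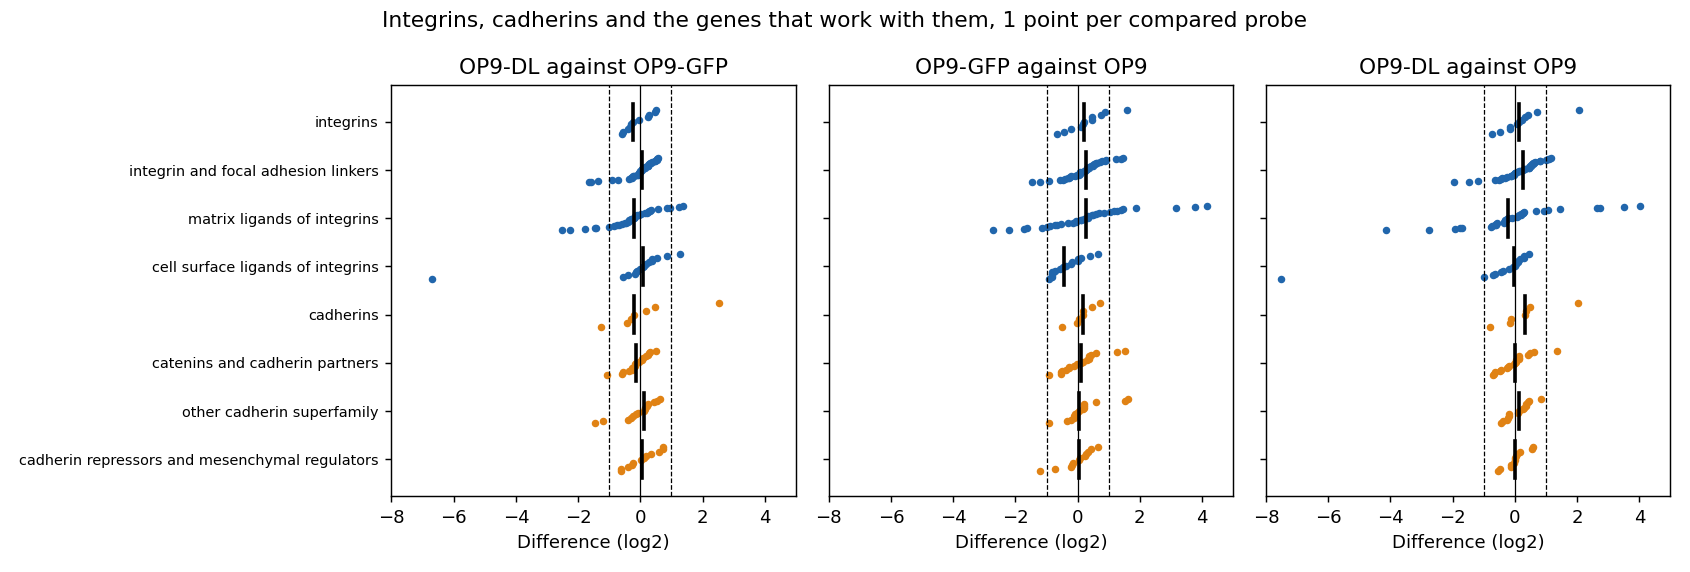
Log2 difference of every compared probe of integrins and 3 related lists (blue) and of cadherins and 3 related lists (orange) in the 3 comparisons, with the median as a black bar and dashed lines at 2-fold. The matrix ligands spread wider than the integrins in each comparison, and the lowest point in both panels with OP9-DL is Cd9.

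The catenins and other cadherin partners showed 0 higher and 1 lower of 19 in OP9-DL against OP9-GFP cells (5.26%, near the 5.04% of all compared probes), with a median of -0.13. Ctnnb1, beta-catenin, had 424.5 in OP9-DL cells, 463.1 in OP9-GFP cells and 673.6 in OP9 cells, and Ctnnd1, p120-catenin, had 24.8, 36.8 and 28.5. Neither was called in any comparison, so the catenins gave no step in OP9-DL cells like that of Cdh2. Nectin3, an immunoglobulin-type adhesion protein of cadherin junctions, was the lower one, with 168.4 in OP9-DL and 350.2 in OP9-GFP cells against 121.1 in OP9, where OP9-GFP was the high array. Pkp4 was lowest in OP9 cells, at 41.5, with 106.4 in OP9-DL and 99.9 in OP9-GFP cells. In OP9-GFP against OP9, Nectin3 and Pkp4 were called higher and 0 lower (10.5%, against 11.6% of all compared probes). In OP9-DL against OP9, Pkp4 was called higher and 0 lower (5.26%, against 11.2%).

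The wider cadherin superfamily had 0 higher and 2 lower of 15 in OP9-DL against OP9-GFP cells, Fat4 and Pcdh15, and the same 2 were higher in OP9-GFP against OP9 (13.3% in each, against 5.04% and 11.6% of all compared probes). Both comparisons share the OP9-GFP array. Fat4, a planar polarity cadherin, had 7.2 in OP9-DL and 16.4 in OP9-GFP cells against 5.3 in OP9. Pcdh15, a hair cell protocadherin, had 8.5, 23.2 and 8.0, so that for both OP9-GFP was the high array. Among 12 probes of cadherin repressors and mesenchymal regulators none was called in OP9-DL against OP9-GFP, where 2-fold or more was reached by 5.04% of all compared probes. Snai2, a repressor of E-cadherin, had 353.6, 542.5 and 510.7, with no call. A pair of probes matched Tcf3, an E-box factor that can act likewise. The one named Tcfe2a on the array, an older symbol of that factor, had 209.5, 207.1 and 230.3, with no call. The one named Tcf3 had 1476.8, 895.8 and 2078.9 and was called lower in OP9-GFP than in OP9, the only call of the list there, but the symbol has also been used for Tcf7l1, so the gene it reads is not settled.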

How the data were processed

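The deposited values are linear probe intensity, which the authors scaled to a median of 20 per array over the probes that have a value, judging by the values. Per the labels' protocols, total RNA was amplified to amino allyl RNA and coupled to Cy5, 1 colour per array. The sources used here do not give the background correction, the rule for blanks or the array's genome build. Blanks were 6.62% (OP9-DL), 6.53% (OP9-GFP) and 6.32% (OP9) of probes. From these, log2 differences were computed with no further scaling and no constant, over the 15581 of 20775 fully measured probes at or above the brightness limit, and called at 2-fold. The 3 arrays limit the precision, and no test or error can be had.

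Of 23473 probes, 16631 had 1 symbol in the platform's table and 6842 did not. Partner lists matched these symbols or their updates through a RefSeq table (GRCm38.p6). The members, the 11 lists and the naming rule (all members, the extremes of each list, cell type markers) were chosen with earlier results of these data known. Calling was run on simulated arrays with equal noise for every probe, set from the OP9-DL against OP9-GFP differences. These cannot show how often dim probes of the real arrays are called wrongly. The alternatives were 3 scalings, other brightness limits, a constant of 2, filled blanks, 1.5-fold and 3-fold thresholds, the brightest probe per gene and updated symbols. Python 3.11.15, numpy 2.4.6, pandas 2.3.3, statsmodels 0.14.6 and matplotlib 3.10.9 were used.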

Additional observations from a re-analysis of the deposited data

How the results depend on the processing

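Over 4 alternatives (quantile, median and lowess scaling, a constant of 2), the log2 difference ran from 2.41 to 2.57 for Cdh2 and from -1.31 to -1 for Cdh11 in OP9-DL against OP9-GFP, and from 1.51 to 1.61 for Itgav in OP9-GFP against OP9. Every call on the 18 members held its side of 2-fold there, and 5 of 216 values turned sign, each near 0: Itga7 in OP9-DL against OP9-GFP (0.010 with quantile and 0.0096 with lowess scaling), Cdh19 in OP9-GFP against OP9 (0.027 quantile, 0.019 median) and Itga1 in OP9-DL against OP9 (-0.00028 lowess). Of 165 recomputed counts and medians, 135 stayed within 1.5 times or 0.1 log2. The brightest probe per gene and updated symbols kept the same 18 compared members. Their member counts and medians could therefore not move. Quantile scaling gave integrins a median of 0.26 in OP9-DL against OP9.

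Without a brightness limit, OP9-DL against OP9-GFP had 3 members higher (Cdh2, Itga6, Itgb2), an integrin median of -0.042 and 1364 probes called, OP9-GFP against OP9 had 3 higher (Cdh8, Itgav, Itgb6) and 2 lower (Itgal, Itgb2) with an integrin median of 0, and OP9-DL against OP9 had 4 higher (Cdh2, Itga6, Itgav, Itgb6) and 2 lower (Cdh16, Itgal) with a cadherin median of 0.11. The extra calls rest on readings below 6.13 on all arrays, except that Itgal read 17.5 in OP9 cells. A limit at the 50th percentile left Cdh11 out, so OP9-DL against OP9-GFP had 0 lower, a cadherin median of 0.18 (above 0) and 457 probes called, and the integrin median of OP9-GFP against OP9 was 0.34. Filled blanks, and a limit on the brightest array chosen after seeing the data, each added Itgal as 1 lower in OP9-GFP against OP9 and 1 lower in OP9-DL against OP9, and filled blanks gave a cadherin median of 0.10 in the last.

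At 1.5-fold, OP9-GFP against OP9 had 4 higher (Cdh13, Itga11, Itga5, Itgav) and 1 lower (Itgb5) and OP9-DL against OP9 2 lower (Cdh11, Itgb4), with 2531, 4586 and 4514 probes called in the 3 comparisons, in the report's order. At 3-fold, Cdh11 and Itgav (OP9-GFP against OP9) were no longer called, 0 lower and 0 higher, with 275, 557 and 657 probes called in that order. No paired analysis was possible because each line has 1 array. Signal over background limits the dim members, and each value rests on 1 probe and 1 culture.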

Other observations

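Another probe, named on the array as B230220E17Rik and now listed as Cdh18 in the gene table, had a value in OP9-DL cells only, 1.8, and changed no count. Itgb8, Itgad and Itgae had no probe with a single symbol and were not analysed here.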
